A study of Mus musculus with 6 samples.

Results

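The Bcl2 family survival genes described here are 8 genes of the mitochondrial route to cell death, taken by symbol from a table of read counts per mouse gene, of whose genes 14756 were tested with all 6 libraries and 16190 without the shallowest one. They are Bcl2, Bcl2l1, Mcl1, Bcl2a1b and Bcl2a1d on the pro-survival side, and Bcl2l11, Bid and Bak1 on the side of death. All 8 symbols were in the table. The libraries compared 3 samples labelled Hes1 KO with 3 labelled WT, all of them bone marrow mesenchymal stromal cells of mice on a C57BL/6 background, with no treatment in the sample labels. Hes1, a transcriptional repressor downstream of Notch, was targeted by crossing heterozygous mice with a floxed Hes1 allele (Hes1fl/+) to Prx1Cre mice, whose Cre is driven by the Prx1 (Prrx1) promoter and enhancer in early limb bud mesenchyme and in part of the craniofacial mesenchyme, so cells outside that lineage would keep the gene. The sources used here do not say how many Hes1 alleles were deleted, whether the WT animals carried Cre or the floxed allele, how old the animals were, or whether each library stands for an animal of its own. The p-values therefore measure the spread between these libraries, which may be technical.

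Proteins of the BCL2 family decide whether the outer membrane of the mitochondrion is opened. BAK and BAX form the pores, the pro-survival proteins BCL2, BCL-XL (the long product of Bcl2l1), MCL1 and BFL-1/A1 (from the Bcl2a1 genes) hold them in check, and BH3-only proteins such as BIM (from Bcl2l11) and BID occupy the pro-survival proteins or activate the pores. Blood cells differ in the guardian they depend on: MCL1 in stem cells and granulocytes, BCL2 in lymphocytes, BCL-XL in maturing red cells and platelets, and A1 in activated myeloid and lymphoid cells.

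The Hes1 KO libraries held 20563116 to 22131465 counts, and WT replicates 2 and 3 held 5812598 and 12109170. WT replicate 1 held 66167 counts and is given apart below, since 1 count there is worth 15.1 CPM, the unit that scales a library to a common total. Levels are given as scaled CPM, with the library size corrected by edgeR's TMM factors for all 6 libraries, and values follow the order of replicates 1, 2 and 3. Those factors were 0.397 for WT replicate 3, 1.60 for WT replicate 1 and 0.975 to 1.21 for the others. The libraries went against their label in their markers, with stromal markers summing to 0.00263% to 0.00743% of counts and Prrx1, the gene whose promoter drives the Cre, at 0 in Hes1 KO replicate 2 and in WT replicates 1 and 3. The neutrophil share ran from 4.95% to 13.3% across Hes1 KO and from 0.0368% to 1.55% across WT, and erythroid markers took 42.4% of WT replicate 3. The targeted gene Hes1 had 185, 220 and 255 counts in Hes1 KO against 0, 310 and 345 in WT, so WT replicate 1 does not check its label. As scaled CPM these were 7.13, 10.7 and 10.9 in Hes1 KO against 0, 44.5 and 71.9 in WT. The log2 fold change of Hes1 was -2.55 without WT replicate 1 (edgeR, adjusted p = 0.0294) and -2.12 with all 6 libraries (edgeR, adjusted p = 0.364).

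The Bcl2a1 copies are the members whose rows depend most on how reads were assigned, and their coding sequences show why. In the GENCODE M21 transcripts (GRCm38) the open reading frames of Bcl2a1b, Bcl2a1d and Bcl2a1a, a copy in the table that is not among the 8, were 519 bases each, and 12 positions differed between at least 1 pair. Bcl2a1b and Bcl2a1d differed at 6 of 519 bases (98.8% identical), and the longest stretch shared by all 3 copies was 217 bases. Bases 1 to 120 of the reading frame held 7 of the 12 differing positions, which are in capitals here and are among the places where a read can tell the copies apart.
Bcl2a1a: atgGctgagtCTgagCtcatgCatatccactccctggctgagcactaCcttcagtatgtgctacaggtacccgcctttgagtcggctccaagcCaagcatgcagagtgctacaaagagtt
Bcl2a1b: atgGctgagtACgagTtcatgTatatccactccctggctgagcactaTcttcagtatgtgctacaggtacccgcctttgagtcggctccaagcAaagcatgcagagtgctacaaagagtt
Bcl2a1d: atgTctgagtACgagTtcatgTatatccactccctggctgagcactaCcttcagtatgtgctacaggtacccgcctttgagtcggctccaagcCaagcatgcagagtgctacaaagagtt

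Promoter windows of RefSeq (build GRCm38.p6, 250 bases before to 50 bases after a start site) were found for 8 of 8 members, in 11 windows. Those of Bid and Bak1 are shown because these were the members that rose when WT replicate 1 was left out. Letters in capitals match, on either strand, CACNAG (the N box of HES proteins), CACGCG (the class C site of HES proteins) or GGAAA (the core of NFAT sites, the family of the factor in the study's title). Both windows are read on the minus strand, at chr6:120916775-120917074 for Bid and chr17:27028578-27028877 for Bak1.
Bid: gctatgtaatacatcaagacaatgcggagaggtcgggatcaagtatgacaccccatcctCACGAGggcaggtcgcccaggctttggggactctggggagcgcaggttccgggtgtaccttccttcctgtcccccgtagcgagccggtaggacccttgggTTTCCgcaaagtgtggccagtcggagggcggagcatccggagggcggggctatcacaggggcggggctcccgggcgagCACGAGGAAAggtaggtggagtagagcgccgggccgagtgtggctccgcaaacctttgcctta
Bak1: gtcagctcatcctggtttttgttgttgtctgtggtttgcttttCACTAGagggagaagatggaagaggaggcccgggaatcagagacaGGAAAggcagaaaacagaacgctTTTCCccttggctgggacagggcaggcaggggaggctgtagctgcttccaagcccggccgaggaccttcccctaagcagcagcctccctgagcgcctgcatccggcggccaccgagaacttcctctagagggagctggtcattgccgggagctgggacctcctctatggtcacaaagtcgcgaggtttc
The Bid window held CACNAG with its first base at -191 and -13 from the start site and GGAAA at -91 and -8, the match at -8 sharing 1 base with the N box match at -13. The Bak1 window held CACNAG at -207 and GGAAA at -162 and -139. CACNAG was present in 42.5% and GGAAA in 61.3% of all 32851 windows of this length, so matches of this kind are common. CACGCG, present in 9.27% of windows, was in neither, and was found at -146 in 1 of the windows of Bcl2l11 and at -86 in 1 of those of Bcl2l1. The same windows also held CACNAG, at -234 and 26 for Bcl2l11 and at -212 for Bcl2l1. GGAAA was found for every member except Bcl2l11.

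The question the design poses for this family is whether its members differ between Hes1 KO and WT. With all 6 libraries none of the 6 members that passed the filter on low counts was called, and without WT replicate 1 (called the 5-library comparison) Bid and Bak1 rose. Bcl2l11 and Bcl2l1 had lower values in Hes1 KO without passing, each with 1 WT library far above the others. Bcl2 and Mcl1 overlapped between the groups. In 6 libraries edgeR called 0 of 14756 genes (0% called), and 2200 genes had an unadjusted p under 0.05 (14.9%), and so did 3 of the 6 tested members, Bak1, Bcl2l1 and Bcl2l11. DESeq2 called 832 genes (5.28%) and 0 members, giving Bcl2l1 no adjusted p, and limma-voom called 0. In 5 libraries edgeR called 2513 of 16190 genes (15.5%) and 2 of 7 tested members, both higher in Hes1 KO. Of all genes 7.44% were called higher and 8.09% lower. An unadjusted p under 0.05 was reached by 4 of the 7 (Bid, Bak1, Bcl2l1 and Bcl2l11) and by 39.8% of all genes. The members' counts were not tested against these shares. In bulk libraries fewer cells of a type and less RNA per cell cannot be told apart, which holds for every difference below.

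**Figure D1:**
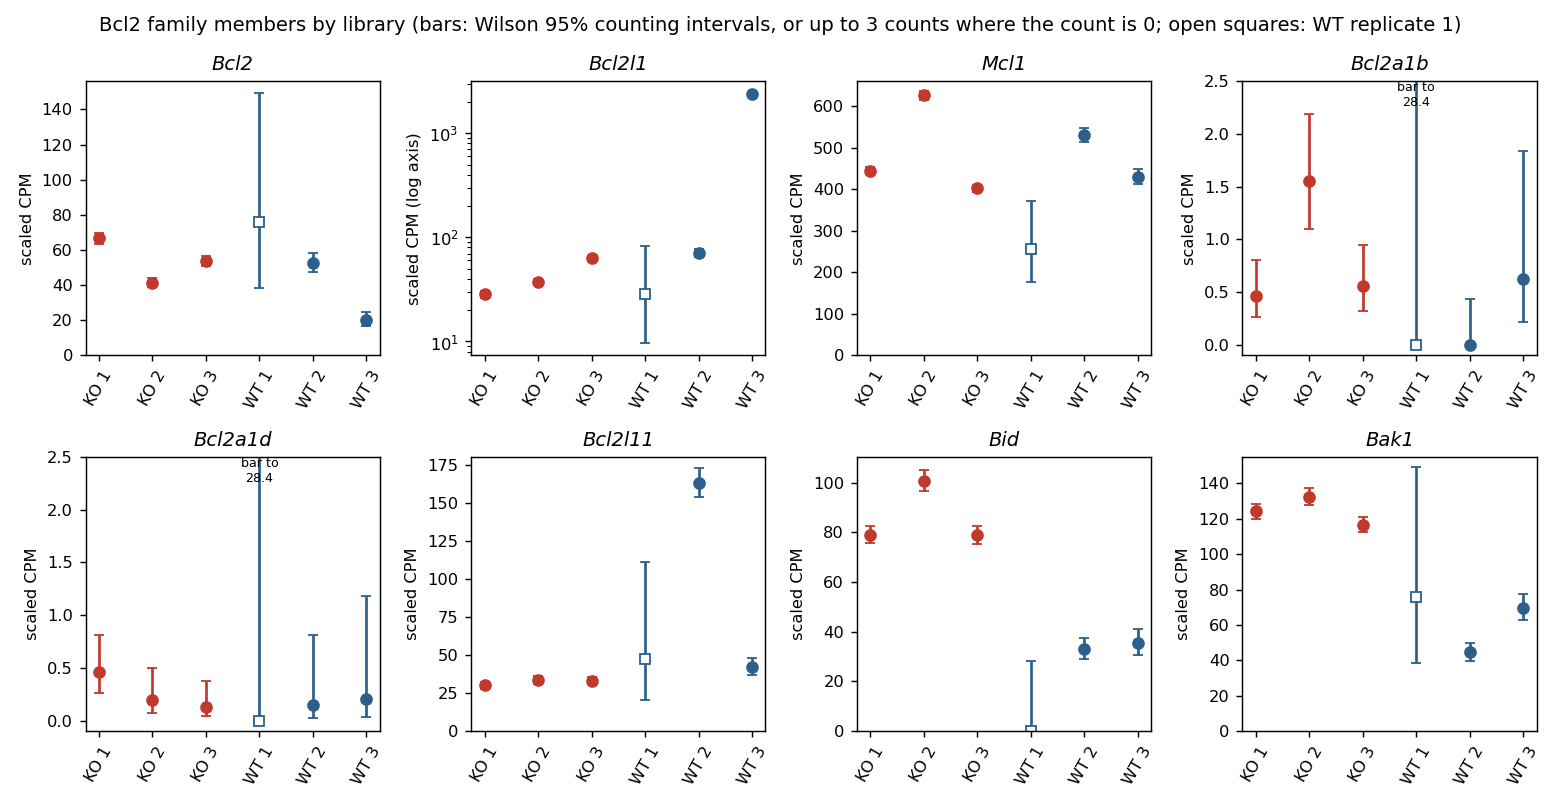
Scaled CPM of each member in the 6 libraries, with Hes1 KO in red, WT in blue, Wilson 95% counting intervals as bars (up to 3 counts where the count is 0) and WT replicate 1 as an open square (the axis of Bcl2l1 is logarithmic). Bid at 78.9 to 101 and Bak1 at 117 to 132 in Hes1 KO lay above all WT points, and Bcl2l1 reached 2368 in WT replicate 3 alone.

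Levels between genes were compared per kilobase of exon (GENCODE M21 lengths, all exons of a gene joined). In the Hes1 KO libraries Mcl1 had the highest level, 144 ± 34.8 scaled CPM per kb (SD, n = 3), followed by Bak1 at 51.7 ± 3.29 and Bid at 24.3 ± 3.54, and the ranges of these 3 did not overlap. Bcl2l1 followed at 9.38 ± 3.99, Bcl2 at 5.89 ± 1.38 and Bcl2l11 at 4.02 ± 0.248. Bcl2l1 and Bcl2 overlapped, while Bcl2 in the lowest library (4.52) was above Bcl2l11 in the highest (4.19). Bcl2a1b at 1.05 ± 0.740 and Bcl2a1d at 0.303 ± 0.205 were lowest. The values of these copies may miss reads that fit more than 1 copy, so their rank is uncertain. In WT replicate 2 Mcl1 was again highest (155 scaled CPM per kb). In WT replicate 3 Bcl2l1 stood at 516 scaled CPM per kb, above Mcl1 at 126.

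Of the pro-survival members, Mcl1, whose short-lived protein binds BAK and BIM, had the highest counts in 5 of the 6 libraries: 11533, 12899 and 9422 in Hes1 KO against 27, 3691 and 2061 in WT. As scaled CPM these were 445, 626 and 402 in Hes1 KO against 256, 530 and 430 in WT. The groups overlapped, with WT replicate 1 lowest and Hes1 KO replicate 2 highest. The log2 fold change of Mcl1 was 0.27 with 6 libraries (95% interval -0.82 to 1.37, edgeR, adjusted p = 0.803) and 0.10 with 5 (-0.72 to 0.91, edgeR, adjusted p = 0.847). Its sign turned with the scaling, to -0.11 in the 5-library comparison under upper-quartile scaling.

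Bcl2, the guardian of lymphocytes, was counted 1731, 853 and 1262 times in Hes1 KO against 8, 365 and 98 times in WT. Its scaled CPM were 66.7, 41.4 and 53.8 in Hes1 KO against 75.8, 52.4 and 20.4 in WT. WT replicate 3 was the lowest library, and the other 2 WT libraries lay among or above the Hes1 KO libraries. The log2 fold change was 0.17 with 6 libraries (95% interval -1.05 to 1.40, edgeR, adjusted p = 0.896) and 0.63 with 5 (-0.44 to 1.71, edgeR, adjusted p = 0.315). With 6 libraries upper-quartile scaling turned the sign (-0.20). Without WT replicate 2, which left WT replicate 3 as the sole WT library, it was 1.46 and was called, the lone sample being assumed to vary like the others. Without WT replicate 3 it was 0.15 (edgeR, adjusted p = 0.713).

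Bcl2l1, the gene of BCL-XL, had 736, 766 and 1489 counts in Hes1 KO against 3, 490 and 11359 in WT. As scaled CPM it stood at 28.4, 37.2 and 63.5 in Hes1 KO against 28.4, 70.3 and 2368 in WT. WT replicate 3 was far above the 5 other libraries, and WT replicate 1 lay within the Hes1 KO range. The log2 fold change was -4.26 with 6 libraries (SE 1.55, edgeR, adjusted p = 0.315) and -4.77 with 5 (SE 1.29, edgeR, adjusted p = 0.0591), and without WT replicate 3 these became -0.32 and -0.61. DESeq2 called the 5-library difference (-4.77).

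WT replicate 3 was also the library rich in erythroid markers, with 42.4% of its counts in 9 of 9 markers, against 0% to 0.312% in the other 5. Hes1 KO replicate 3 had the next highest share (0.312%) and the highest Bcl2l1 of the Hes1 KO libraries (63.5 scaled CPM). WT replicate 2, with a share of 0.0119%, had more Bcl2l1 (70.3). Hes1 KO replicate 1 had a higher share than replicate 2 (0.0121% against 0.00409%) and less Bcl2l1 (28.4 against 37.2). In WT replicate 1 all 9 erythroid markers were at 0. Bnip3l, a BCL2 family gene of mitochondrial clearance in maturing red cells, had 31833 counts in WT replicate 3 (6638 scaled CPM) and 75.8 to 138 scaled CPM in the other 5, with log2 fold changes of -4.28 and -4.79 that did not pass (edgeR, adjusted p = 0.318 and 0.0709). The part of red cell transcripts in the Bcl2l1 difference was not tested.

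The Bcl2a1 genes, whose A1 protein is short-lived and inducible, were near the limit of counting. Bcl2a1b had 12, 32 and 13 counts in Hes1 KO against 0, 0 and 3 in WT, and Bcl2a1d 12, 4 and 3 against 0, 1 and 1. Pooled over libraries the ratio of Hes1 KO to WT was 3.22 for Bcl2a1b (exact 95% interval 1.05 to 16.1) and 1.61 for Bcl2a1d (0.389 to 14.3), intervals that cover counting error only. Bcl2a1a had 9, 11 and 4 counts in Hes1 KO against 0 in each WT library, at least 1.36-fold higher than a floor of 3 counts over the WT group.

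With the 3 copies summed, which removes only the split of counted reads between them, there were 33, 47 and 20 counts in Hes1 KO against 0, 1 and 4 in WT. A count of 0 in WT replicate 1 allows up to 28.4 scaled CPM (3 counts), far above the 0.853 to 2.28 of Hes1 KO, so that library says nothing of these genes. The sum in WT replicate 3, 0.834 scaled CPM, was just below the lowest Hes1 KO library. The log2 fold change of the sum was 1.70 with 5 libraries (95% interval -0.46 to 3.85, edgeR, adjusted p = 0.201), and Bcl2a1b alone, which passed the filter through its Hes1 KO counts, had 1.61 (SE 1.41, edgeR, adjusted p = 0.419). Pooled over libraries, the ratio of the sum was 3.39 (exact 95% interval 1.41 to 10.7, counting error only), above 1, while the test across libraries did not pass.

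Of the 3 members that promote death, Bid, which is cut by caspase-8 and then activates BAK and BAX, was counted 2051, 2076 and 1850 times in Hes1 KO against 0, 230 and 170 times in WT. Its scaled CPM were 79.1, 101 and 78.9 in Hes1 KO (mean 86.2 ± 12.6 SD, n = 3) against 0, 33.0 and 35.4 in WT. All Hes1 KO libraries lay above all WT libraries, and the limit that 0 counts allow in WT replicate 1 (28.4 scaled CPM, the worth of 3 counts) was also below them. Bid rose by 1.39 on the log2 scale with 5 libraries (95% interval 0.86 to 1.93, edgeR, adjusted p = 0.0301). With 6 libraries the value was 1.77 (SE 0.92) and did not pass (edgeR, adjusted p = 0.396).

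Bak1, which encodes the pore protein BAK, had 3222, 2729 and 2734 counts in Hes1 KO against 8, 310 and 335 in WT. As scaled CPM it stood at 124, 132 and 117 in Hes1 KO (mean 124 ± 7.92 SD, n = 3) and at 75.8, 44.5 and 69.9 in WT. The groups did not overlap, though the interval of WT replicate 1 (38.4 to 150 scaled CPM, Wilson 95%) spans both. Bak1 rose by 1.18 with 5 libraries (95% interval 0.53 to 1.84, edgeR, adjusted p = 0.0422). With 6 libraries it was at 0.99 (SE 0.36) and did not pass (edgeR, adjusted p = 0.315).

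Both rises were positive in each of the 16 alternatives of the 5-library comparison, at 1.15 to 1.80 for Bid and 0.89 to 1.74 for Bak1, and both calls were lost without any 1 of the 3 Hes1 KO libraries, where 0 of all genes were called. Both were also lost with library size alone as the scaling and with the replicate number as a block, and that of Bak1 under upper-quartile scaling and the legacy option of edgeR (adjusted p = 0.0536 and 0.0524). The summed neutrophil markers (15 of 15 in the table) and macrophage markers (14 of 14) were also higher in each Hes1 KO library than in any WT library. The neutrophil share was 4.95%, 13.3% and 6.05% of a Hes1 KO library and 1.13%, 1.55% and 0.0368% of a WT library. The macrophage share was 1.01%, 2.003% and 1.12% against 0.459%, 0.205% and 0.0174%. Most macrophage counts of the Hes1 KO libraries came from Lyz2 (176395 of 223935, 388034 of 424102 and 193823 of 230292). The next most abundant macrophage marker, Mpeg1, was at 1358, 1182 and 1124.5 scaled CPM in Hes1 KO against 1781, 257 and 265 in WT. Its value in WT replicate 1 came from 188 counts. Hes1 KO replicate 2, the library with the highest share of both lists, had the highest Bid and the highest Bak1 of the 6. The Wilson counting intervals of Bak1 in Hes1 KO replicates 2 and 1 overlapped (128 to 137 and 120 to 129 scaled CPM). Among the other libraries the order failed beyond counting error for Bak1 in WT replicates 2 and 3. WT replicate 2, the richer in neutrophil markers, had the lower Bak1 (39.8 to 49.7 against 62.8 to 77.7). Its Bid was also lower, but within counting error (29.0 to 37.6 against 30.5 to 41.2). Hes1 KO replicate 3 had more of these markers than replicate 1 and less Bak1, with overlapping intervals (112 to 121 against 120 to 129). In WT replicate 1 S100a8, S100a9, Lcn2 and Ly6g were at 0, and so were 8 of the 14 macrophage markers. In WT replicate 2 Mertk, C1qb, C1qc and Siglec1 were at 0. The part of these cells in the rises was not tested.

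Bcl2l11, whose product BIM binds every pro-survival member and sets the life span of granulocytes and lymphocytes, was counted 778, 693 and 779 times in Hes1 KO against 5, 1134 and 202 times in WT. The scaled CPM were 30.0, 33.6 and 33.2 in Hes1 KO (mean 32.3 ± 1.99 SD, n = 3) and 47.4, 163 and 42.1 in WT. All Hes1 KO libraries were below all WT libraries, WT replicate 2 stood apart from the other WT libraries, and the interval of WT replicate 1 (20.2 to 111, Wilson 95%) contains the Hes1 KO values. The log2 fold change was -1.40 with 6 libraries (SE 0.57, edgeR, adjusted p = 0.324) and -1.60 with 5 (SE 0.51, edgeR, adjusted p = 0.0811). In the 5-library comparison DESeq2 called it (-1.59), and edgeR gave -0.32 without WT replicate 2 and a call at -2.23 without WT replicate 3.

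WT replicate 2 also had the highest level of Malat1, a nuclear noncoding RNA chosen after its values were seen, at 11592 scaled CPM against 1690 to 4951 in the other 5 libraries. B cell markers took their largest share of counts there too, 0.591% against 0.301% in WT replicate 3, 0.0227% in WT replicate 1 and 0.0959% to 0.166% in Hes1 KO. These shares are of all counts in a library, of which erythroid markers took 42.4% in WT replicate 3. As scaled CPM, Ebf1 was higher in WT replicate 2 than in WT replicate 3 (2611 against 1723). Pax5 was lower there (573 against 1027). Neither Malat1 nor the B cell markers were tested as a part of the Bcl2l11 difference. Of the 6 members tested with 6 libraries, the groups were apart for 2 higher in Hes1 KO (Bid, Bak1) and 1 lower (Bcl2l11). Among all genes tested the shares were 22.5% and 5.15% (27.7% in either direction). Of the 7 members tested with 5 libraries, 2 were apart above and 2 below (Bcl2l1 and Bcl2l11). The shares there were 31.2% and 24.5% (55.7% in either direction), so groups that do not overlap were common among all genes.

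**Figure D2:**
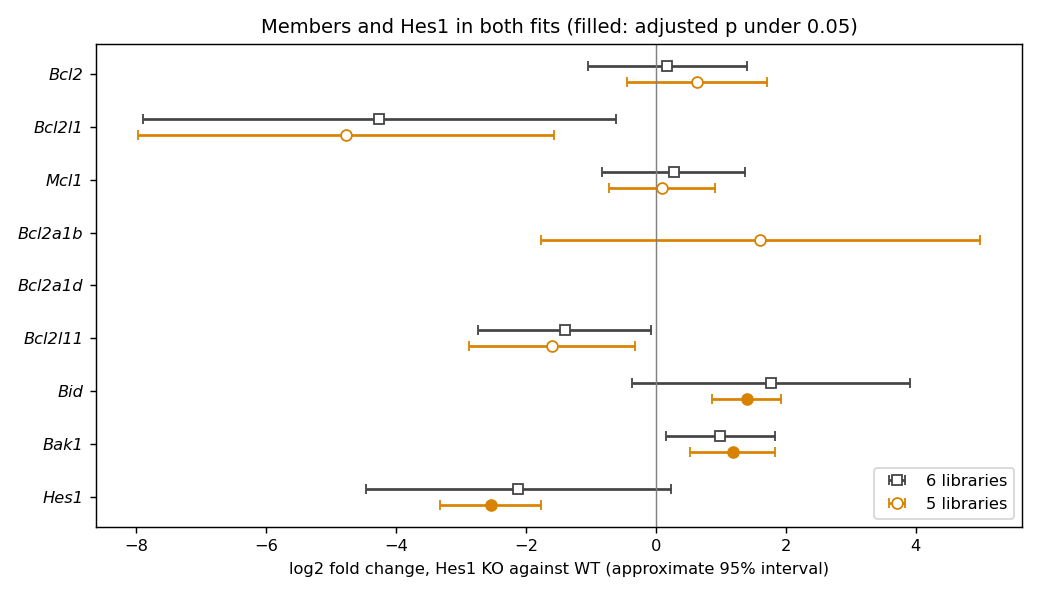
Log2 fold changes of the members and of Hes1 with approximate 95% intervals, grey squares for 6 libraries and orange circles for 5, filled where the adjusted p is under 0.05. Among the members only Bid (1.39) and Bak1 (1.18) are filled, in the 5-library comparison, and Bcl2a1d was not tested in either.

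Ratios of counts within a library do not depend on how libraries are scaled. For every 100 counts of Mcl1 there were 17.8, 16.1 and 19.6 counts of Bid in Hes1 KO against 0, 6.23 and 8.25 in WT. Bid was thus higher against Mcl1 in every Hes1 KO library, by 1.96 on the log2 scale, with the 0 set to 0.5 count. Without WT replicate 1, where the 0 stands beside 27 counts of Mcl1, the value was 1.31, and with a prior of 1 count it was 1.64. The exact permutation test gave p = 0.1, the smallest that 3 against 3 libraries allow, so no ratio can pass 0.05 (Benjamini-Hochberg adjusted p = 0.35 over 7 ratios, two-sided).

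Bcl2l11 showed the opposite order, with 6.75, 5.37 and 8.27 counts for every 100 of Mcl1 in Hes1 KO against 18.5, 30.7 and 9.80 in WT (log2 difference -1.41, exact permutation p = 0.1, adjusted p = 0.35). Bak1 overlapped, at 27.9, 21.2 and 29.0 in Hes1 KO against 29.6, 8.40 and 16.3 in WT (0.69, exact permutation p = 0.4, adjusted p = 0.7). The overlap came from WT replicate 1, with 8 counts of Bak1 and 27 of Mcl1. Without that library the groups were apart (1.14), and without WT replicate 2 the value was 0.23. Bcl2l1 stood at 5.94 to 15.8 counts for every 100 of Mcl1 in 5 libraries and at 551 in WT replicate 3 (log2 difference -2.36, and -0.53 without that library, exact permutation p = 0.3, adjusted p = 0.7). For Bcl2, Bcl2a1b and Bcl2a1d the groups overlapped as well (exact permutation p = 1, 1 and 0.7, adjusted p = 1, 1 and 0.98).

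**Figure D3:**
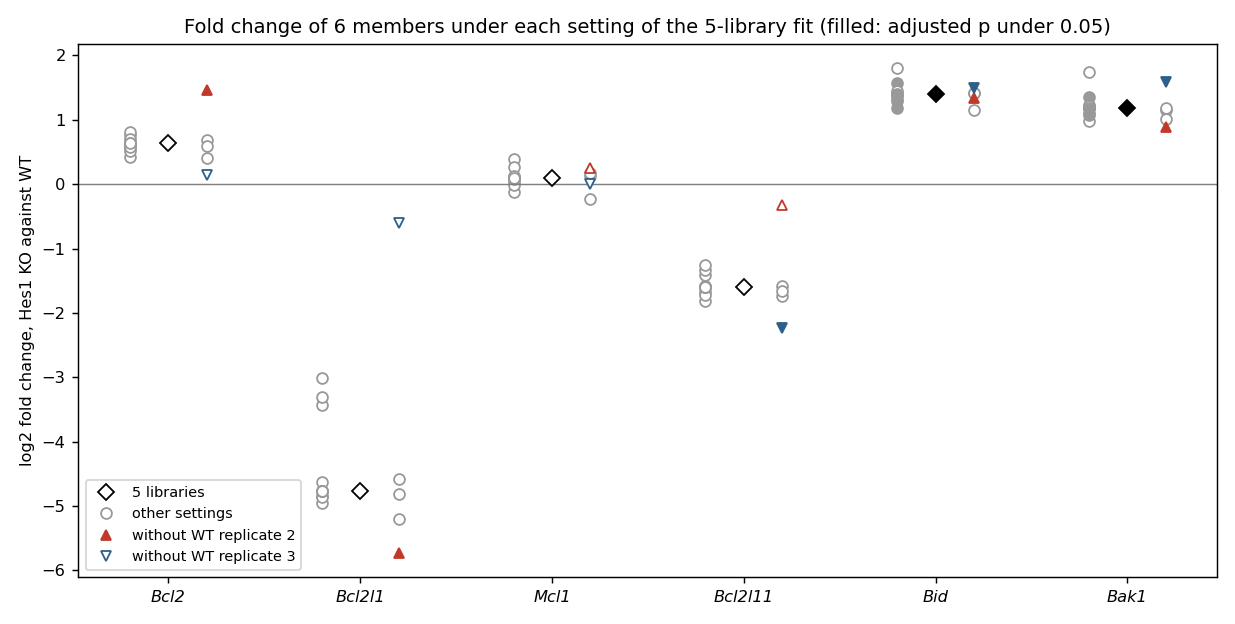
Log2 fold change of 6 members in the 5-library comparison (diamond), under other scalings, filters, tools and options (left of each diamond) and with 1 library left out (right), filled where the adjusted p is under 0.05. Bid and Bak1 stay above 0 throughout, Bcl2l1 moves to -0.61 without WT replicate 3 and Bcl2l11 to -0.32 without WT replicate 2.

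**Figure D4:**
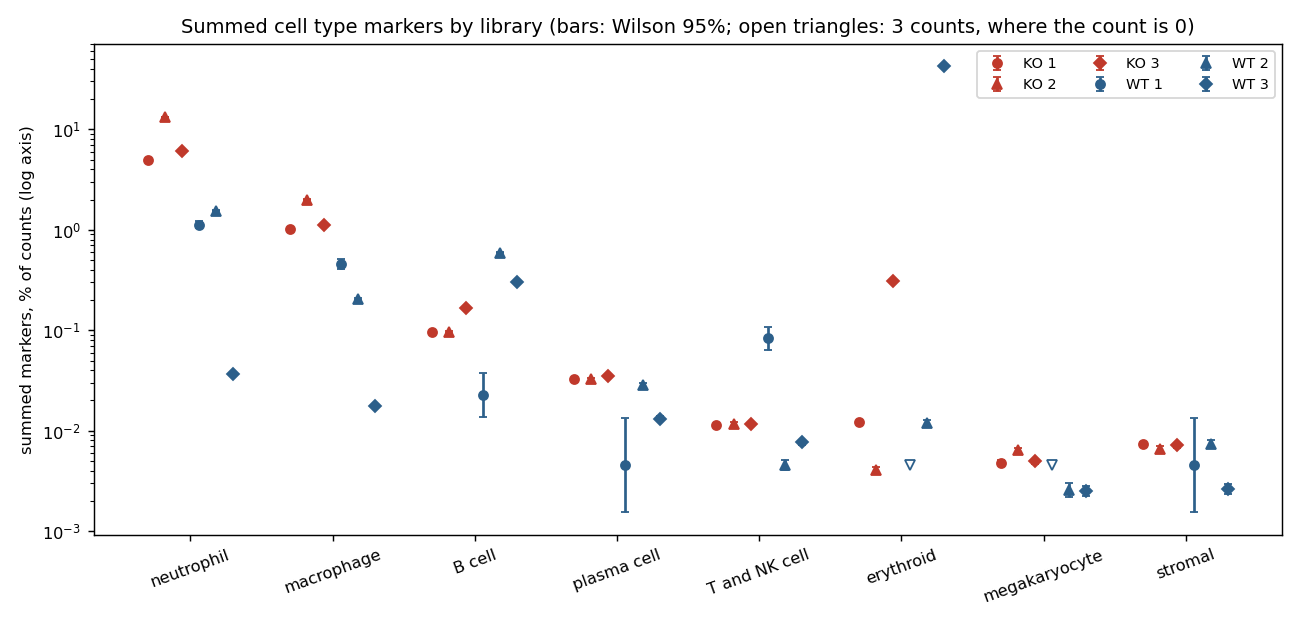
Summed counts of cell type markers as a percent of each library on a log axis, Hes1 KO in red and WT in blue, with Wilson 95% intervals and open triangles at 3 counts where the count is 0. Erythroid markers took 42.4% of WT replicate 3, and stromal markers at most 0.00743% of any library.

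The other genes of the pathway were taken from 8 lists of 59 genes, which hold the members too. In 5 libraries 52 were tested, 12 rose, 4 fell and 36 did not pass, beside the 15.5% called among all genes, and their median log2 fold change was 0.47 against 0.02 for all genes. With 6 libraries 0 of 51 passed (edgeR, 8 with an unadjusted p under 0.05), with a median of 0.39 against 0.03. None of the genes named below passed with 6 libraries. Their calls with 5 libraries were also lost in many of the 16 alternatives. The losses were 11 for Fadd, 10 for Bcl2l14, Fbxw7 and Tnfsf10, and 9 for Birc2. They were 7 for Htra2 and Vdac1, 6 for Bad, Fas and Vdac3, and 5 for Bmf and Tnfrsf1b. In 5 libraries 0 of the listed genes were called without any 1 Hes1 KO library, with library size alone or with the replicate block, and 28 without WT replicate 3.

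Of 5 tested pro-survival genes none passed in the 5-library comparison, the smallest p being those of Bcl2l1 and Bcl2 (edgeR, adjusted p = 0.0591 and 0.315). Bcl2l2, which encodes BCL-W, was at 15.2 to 18.1 scaled CPM in Hes1 KO against 9.47, 19.9 and 16.1 in WT. Of the 3 pore genes Bak1 rose alone. Bax, the partner of Bak1, was at 46.5, 54.1 and 43.8 scaled CPM in Hes1 KO against 0, 16.1 and 37.1 in WT, a log2 fold change of 0.92 (95% interval -0.03 to 1.86, edgeR, adjusted p = 0.134). Whether Bax and Bak1 differed from each other was not tested.

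The BH3-only genes split in direction, with 2 of 6 tested rising and 1 falling (median -0.52). Bad, which binds BCL2 and BCL-XL, had 728, 812 and 616 counts in Hes1 KO against 0, 67 and 62 in WT and rose by 1.53 (edgeR, adjusted p = 0.0338), beside Bid. Bmf, which binds the same guardians and is held at the cytoskeleton, had 12.5, 27.1 and 21.4 scaled CPM in Hes1 KO against 0, 113 and 143 in WT. It fell by 2.59 on the log2 scale (edgeR, adjusted p = 0.0294), the 0 of WT replicate 1 allowing up to 28.4 scaled CPM. Bbc3, the p53 target PUMA, was at 9.47 to 13.2 scaled CPM in Hes1 KO against 9.47, 23.1 and 18.1 in WT and did not pass (-0.80, edgeR, adjusted p = 0.0805).

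Among the other family members 1 of 6 rose, Bcl2l14, with 35, 29 and 36 counts in Hes1 KO against 0, 3 and 1 in WT (2.16, edgeR, adjusted p = 0.0428). It passed the filter on low counts only through the Hes1 KO libraries, and its call was lost in 10 of 16 alternatives. Htra2, a mitochondrial protease listed with the genes of the apoptosome, rose by 0.97 (edgeR, adjusted p = 0.0405), with 38.7, 32.9 and 38.6 scaled CPM in Hes1 KO against 9.47, 18.4 and 20.9 in WT.

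Of 8 caspase inhibitors and death receptor adaptors 1 rose and 1 fell. Fadd, the adaptor that recruits caspase-8 upstream of BID, rose by 0.95 (edgeR, adjusted p = 0.0485), with 19.4 to 22.6 scaled CPM in Hes1 KO, 10.2 and 11.9 in WT replicates 2 and 3 and 56.8 from 6 counts in WT replicate 1. Birc2, the gene of cIAP1, fell by 0.72 (edgeR, adjusted p = 0.0497). Of 7 outer membrane partners and genes of MCL1 turnover 2 rose and 1 fell. The channel genes Vdac1 and Vdac3 rose by 0.99 and 0.98 and Fbxw7, which marks MCL1 for destruction, fell by 0.81 (edgeR, adjusted p = 0.0393, 0.0355 and 0.0493).

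Death receptors and ligands had 2 of 5 tested rising and 1 falling, with a median of 1.88. Fas, a death receptor that acts through FADD, had 7.67, 23.1 and 9.42 scaled CPM in Hes1 KO against 1.58 and 1.67 in WT replicates 2 and 3, and 18.9 from 2 counts in WT replicate 1. It rose by 3.10 and Tnfrsf1b, a TNF receptor without a death domain, by 2.24 (edgeR, adjusted p = 0.0336 and 0.0294). Tnfsf10, the ligand TRAIL, fell by 1.66 (edgeR, adjusted p = 0.0495), from 24.4 and 58.8 scaled CPM in WT replicates 2 and 3 to 10.1 to 15.2 in Hes1 KO. For Fas and Tnfrsf1b, WT replicate 1 lay within or above the Hes1 KO libraries (256 scaled CPM of Tnfrsf1b against 135 to 185).

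**Figure D5:**
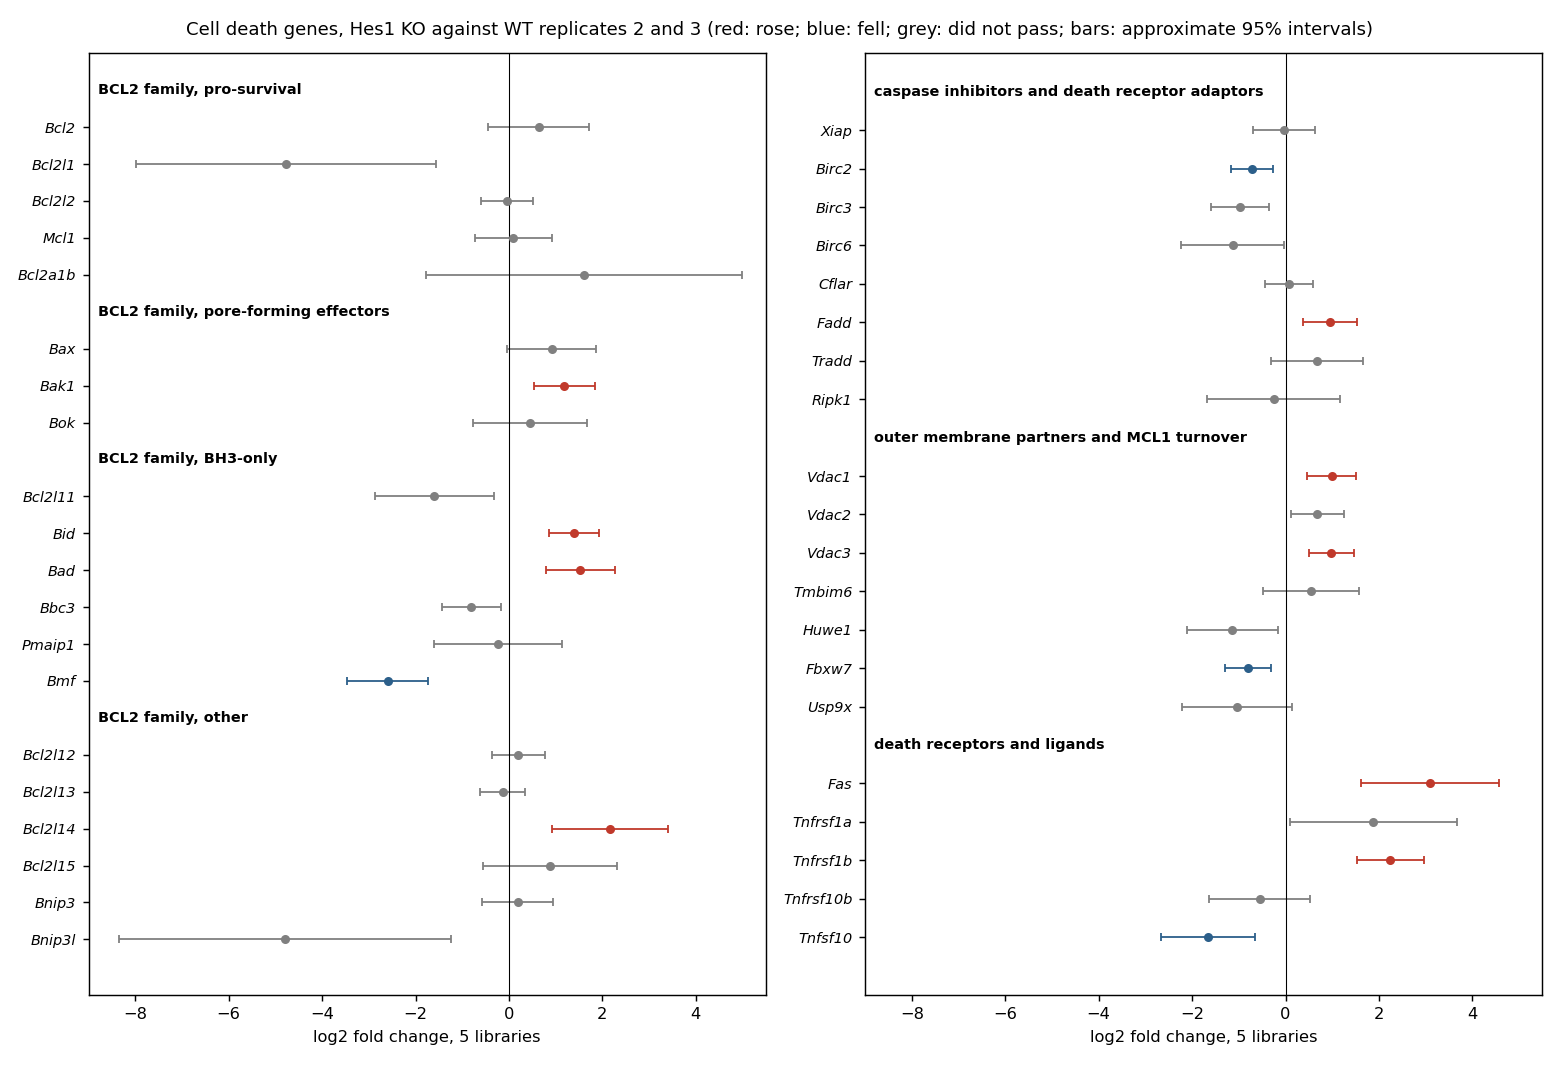
Log2 fold changes of the tested genes of 7 pathway lists in the 5-library comparison, with approximate 95% intervals, red for those that rose, blue for those that fell and grey for the rest. The red points include Bid and Bak1, and the 4 blue points are Bmf, Birc2, Fbxw7 and Tnfsf10.

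The genes whose profile over the 5 libraries was most like a member's were found by the root mean square difference of centred log2 levels, as a description. Genes with a mean count of at least 50 over these libraries were eligible. For Bid these were Mid1ip1 and Fcgr2b, a receptor for IgG (both 0.05). For Bak1 they were Snrpe, a splicing protein gene, and Rps3, a ribosomal protein gene (0.02 and 0.03), and for Mcl1 Tbc1d20 and Casp4 (both 0.06). For Bcl2 they were Dsn1 and Mpp6 (0.04 and 0.07). The members with a library of their own had looser matches. These were Chka and Nfkbid for Bcl2l11 (0.11 and 0.13), both also highest in WT replicate 2, and Chst10 and Cpeb3 for Bcl2l1 (0.15 and 0.25), both highest in WT replicate 3. Chst10 and Cpeb3 reached the minimum through that library, with 300 and 315 counts there and 13 to 54 in the others. For Bcl2a1b the nearest were Csrp3 and Prr5l (0.20 and 0.24) and for Bcl2a1d Clnk and Pld2 (0.21 and 0.24), where the members' own few counts set the profile.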

How the data were processed

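The values are raw read counts per gene as deposited by the authors. The table's name points to featureCounts, and the submitters' processing notes list the genome build GRCm39, edgeR and limma. Which aligner, annotation and strand setting were used is not given in the sources, so reads of overlapping or antisense genes cannot be told apart. Tests ran on these raw counts in edgeR 4.0.16 under R 4.3.3: filterByExpr, TMM scaling, the quasi-likelihood test with the legacy option off and Benjamini-Hochberg adjustment over all genes, with a threshold of 0.05. The fit was made with all 6 libraries (14756 genes) and without WT replicate 1 (16190 genes). Of the 8 members 6 and 7 passed the filter. Each standard error is derived from the log2 value and its F statistic, so intervals are approximate. Scripts were tested on simulated data.

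The call counts, the tested members, Hes1 and, as an alternative chosen after seeing the data, the named list genes in the 5-library comparison were recomputed with 3 further scalings, 2 further filters, DESeq2 1.42.0, voom of limma 3.58.1, 2 options of the test, the replicate number as a block, summed Bcl2a1 copies and each library left out. The ratios to Mcl1 were recomputed with a prior of 1 count and with each library left out. Named are the members, Hes1, and in each list the genes that passed in either fit (at most 6) or otherwise the 2 smallest p, and for each member the 2 genes nearest in profile (mean count of at least 50, pseudocount 0.1). Bax, Bcl2l2, Bbc3, Bnip3l and Malat1 were named after their values were seen. The members and lists were chosen with earlier results of these data known. Intervals and floors cover counting error only. Some genes of the lists are not reported here by name, and the list of apoptosome genes is left out of the plot.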

Additional observations from a re-analysis of the deposited data

How the results depend on the processing

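Over all genes, scaling moved the median log2 value from 0.03 to 0.26 (library size alone) and -0.21 (upper quartile) with 6 libraries, and from 0.02 to 0.44 and -0.19 with 5. DESeq2 gave medians of -1.12 and -0.40. With 6 libraries the count of called genes became 832 with DESeq2, and leaving out 1 library gave 0 to 2513 calls and 0 to 2 called members, WT replicate 1 being the library whose absence gave calls. With 5 libraries, 0 genes and 0 members were called with library size alone and 0 and 0 with the replicate block, 4827 genes and 4 members with DESeq2 (Bcl2l1 and Bcl2l11 also), 1440 genes with limma-voom, and 1 member (Bid) with upper-quartile scaling, where 803 genes rose and 1790 fell, and with the legacy option. Leaving out 1 further library gave 0 to 6210 genes and 0 to 4 members, with 0 calls without any Hes1 KO library. Fewer samples enter those fits. Without WT replicate 2, 4809 genes and Bcl2, Bcl2l1, Bid and Bak1 were called, and without WT replicate 3, 6210 genes and Bcl2l11, Bid and Bak1. Whether the replicate numbers pair the libraries cannot be settled with 3 libraries in a group and 66167 counts in WT replicate 1. Same-numbered libraries deviated together with r = 0.15, -0.01 and 0.29 for numbers 1, 2 and 3. Hes1 KO replicates 1 and 3 correlated best with their own number. Replicate 2 did not, with r = 0.04 to WT replicate 1. Under the block Bid stood at 1.44 and Bak1 at 1.21. Of the listed pathway genes, with 16 called in 5 libraries, 0 were called with library size alone, 0 with the block, 6 with limma-voom and 8 with the legacy option. Leaving out 1 library gave 0 to 28 with 5 libraries and 0 to 16 with 6.

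Of 547 recomputed values of single genes and ratios, 409 kept their direction and side of the threshold, 109 lost and 12 gained a call, and 17 reversed. Only genes called in the main fit can lose a call, and the ratios to Mcl1 cannot pass 0.05, so the 547 do not measure how stable the calls were. Each recomputed gene that was called with 5 libraries lost its call in 5 to 11 of its 16 alternatives. The reversals among members concern values near 0 or few counts. Upper-quartile scaling gave -0.20 for Bcl2 with 6 libraries and -0.11 for Mcl1 with 5, and the filter of at least 1 CPM in at least 3 libraries gave -0.015 for Mcl1 with 5. Leaving out 1 library gave -0.18 to 0.63 for Bcl2 with 6 libraries, and for Mcl1 -0.049 to 0.40 with 6 and -0.23 to 0.25 with 5. The log2 ratios to Mcl1 ran, with 1 library left out, from -0.64 to 0.68 for Bcl2, from -1.77 to 1.78 for Bcl2a1b and from -2.68 to 0.37 for Bcl2a1d. Of the list genes, Bcl2l2 reversed to 0.29 with library size alone and 0.14 with no filter and ran from -0.15 to 0.12 with 1 library left out, and Bnip3l from -5.76 to 0.15. The cause was not tested. Depth limits WT replicate 1, where 3 counts make 28.4 scaled CPM. The Bcl2a1 genes had few counts in all libraries, and whether reads that fit more than 1 copy were counted is not known here.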
